A study of Mus musculus with 16 samples.

Results

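The genes described here encode the respiratory chain and the ATP synthase of the inner mitochondrial membrane, in whole livers of male wild-type C57BL/6J mice. Members were chosen by symbol among protein-coding genes: Nduf, Sdh followed by a to d, Uqcr, Cox4 to Cox8, Atp5, and the mitochondrial mt-Nd, mt-Co, mt-Cytb and mt-Atp. This rule takes 111 of the 54838 genes in the count tables, 98 of them nuclear and 13 on the mitochondrial genome. No expression value was used to choose them. By complex, the rule gave 43 complex I subunits, 8 complex I assembly factors, 4 complex II subunits, 4 complex II assembly factors and 9 complex III subunits. It also gave 23 complex IV genes, 19 complex V genes and Atp5s, which was kept apart from the subunits. Ndufa4, once counted in complex I, and its paralog Ndufa4l2 were placed with complex IV.

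Complex I passes electrons from NADH, and complex II from succinate, to ubiquinone. Complex III passes them on to cytochrome c, complex IV delivers them to oxygen, and complex V uses the resulting proton gradient to make ATP. Complexes I, III, IV and V mix subunits made in the cytosol from nuclear genes with subunits made inside the organelle from mitochondrial DNA, while complex II is wholly nuclear. Hepatocytes are rich in mitochondria, and these mRNAs are among the abundant transcripts of the liver.

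The study compared 2 ways of making the liver regenerate. In the first experiment, the 3 samples of the treated group are livers of mice given carbon tetrachloride (CCl4), a hepatotoxin activated in pericentral hepatocytes, mixed 1:1 with olive oil, and the 3 control samples of mice given olive oil alone. Both were injected into the peritoneum at 2 µL per g body weight, and the livers were taken 3 days later. In the second, 5 livers were sampled at partial hepatectomy (PH), the surgical removal of liver lobes, called day 0 here, and 5 were sampled 3 days after it. The day 0 liver is thus the resected tissue, not a sham-operated liver of the same day. Libraries were made from bulk liver RNA of integrity number 8 or above with an mRNA kit, so that fewer cells of a type and less RNA per cell cannot be told apart.

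Libraries held 4738196 to 6218526 counts after CCl4 and 4295169 to 5221957 after olive oil. Those of the surgical experiment held 3271398 to 8647503 counts before PH and 2795909 to 4391002 after it. Levels are given as CPM, counts brought to a common library total after TMM scaling, in which 3 counts correspond to 0.372 to 1.02 CPM. The labelled tissue was checked against 8 hepatocyte markers, all of which had counts in every group, with a summed level of 91528 to 139002 CPM. The libraries labelled PH day 3 replicates 12 and 14 stood apart, with 1625 and 176 CPM summed over 6 striated muscle markers against 0 to 1.98 CPM in the other 14 samples. CCl4 replicate 1 also stood apart: its 20 most abundant genes took 34.5% of its counts, against 25.7% and 25.8% in the other CCl4 samples. Its TMM factor was 0.986, where the other CCl4 samples had 1.30 and 1.29 and the olive oil samples 0.859 to 0.928. With scaling to the plain library size, the median log2 fold change of all genes moved by 0.45 for CCl4, by 0.14 for PH and by 0.28 for the difference between the responses. The changes below are relative to the TMM scale, on which those medians were near 0.

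Among the 13 mitochondrial genes, 7 had enough counts to be tested in both comparisons: mt-Co1, mt-Cytb, mt-Nd1, mt-Nd2 and mt-Nd4 to mt-Nd6. The other 6 (mt-Nd3, mt-Nd4l, mt-Co2, mt-Co3, mt-Atp6 and mt-Atp8) were close to 0, with summed counts over all 16 samples of 1, 8, 5, 106 and 35 for the first 5. For these 5 the nuclear genome carries an annotated, near-identical copy. Copies of 7 mitochondrial genes lie in a row on the minus strand of chromosome 1, at 24611535 to 24616197 (GRCm38), annotated as pseudogenes. Of all 75-base windows of those 5 genes, 97.8% to 99.9% occurred again in an annotated copy, and the authors' counter was set to leave reads with several placements out. The share was 61.5% for mt-Nd4 and 39.8% for mt-Co1, so their levels were measured on part of the gene. mt-Co2 (681 of 681 aligned bases), mt-Co3 (783 of 783), mt-Atp6 (678 of 678) and mt-Nd4l (294 of 294) were identical to their copies. mt-Nd3 differed at 1 of 345 bases, T3C, counted from 1 at the first base of the gene. The first 75 bases of mt-Nd3 and of its copy Gm28438 show what the counter had to tell apart, with the differing base in capitals, and the first 75 bases of mt-Co3 are the same in its copy Gm28437:
mt-Nd3: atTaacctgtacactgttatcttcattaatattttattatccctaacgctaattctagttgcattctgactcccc
Gm28438: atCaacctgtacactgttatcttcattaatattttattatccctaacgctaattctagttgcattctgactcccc
mt-Co3: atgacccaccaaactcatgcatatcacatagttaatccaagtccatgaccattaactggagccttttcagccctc
A read that lies in such a window fits both loci, and the counts of these 5 genes were not taken as a level of their RNA. mt-Atp8 was also close to 0, and overlaps mt-Atp6 over 21.1% of its length, where the counter assigned no read. It shared no such window with another annotated transcript, but sequence outside annotated transcripts was not searched. On chromosome 1 the copy of mt-Atp6 reaches to 24614651 and that of mt-Co2 begins at 24614885. Whether the stretch between these copies matches mt-Atp8 was not tested. Calls and medians on the mitochondrial genome in the CCl4 and PH comparisons therefore rest on 7 genes, 5 of them complex I subunits, with no complex V subunit. The fit of all 4 groups also admitted mt-Co3, as an eighth gene, which was not called there for the difference. Of the 98 nuclear members, 54 shared no 75-base window with another gene and 44 shared some. Only 7 shared 25% or more, at a median level of 7.91 TPM (counts per gene length), against 105 TPM for the 54.

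Per length, the measured mitochondrial mRNAs stood far above the nuclear ones. In TPM (counts divided by gene length, brought to a common total), given as the mean of the 4 group means, mt-Cytb had 17873, mt-Nd1 15794, mt-Co1 13448 and mt-Nd2 13382. mt-Nd4 followed at 6071 and mt-Nd5 at 4258. The highest nuclear members were the catalytic core subunits of ATP synthase, Atp5a1 at 656 TPM and Atp5b at 553 TPM, then Cox6b1 at 513 TPM and Cox4i1 at 424 TPM. mt-Nd6, the single protein gene on the light strand of mitochondrial DNA, ranked 28th of the members at 189 TPM. By complex, the median TPM of nuclear subunits was 202 for complex III, 180 for complex II, 83.7 for complex I, 76.4 for complex V and 43.1 for complex IV, whose list holds the tissue-specific isoforms. Assembly factors, which are needed only while a complex is built, had medians of 12.7 TPM for complex I and 12.3 TPM for complex II.

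At 3 days after CCl4, transcripts of every complex and of both genomes were lower relative to the rest of the transcriptome, a fall called with TMM scaling but for no member with library size scaling. Of 95 members tested, 40 fell and 0 rose (edgeR quasi-likelihood test, adjusted p under 0.05). Among all 11337 genes tested, 11.6% fell and 11.3% rose. The median log2 fold change of the tested members was -0.47, a fold of 0.721, against 0.01 for all genes, and 91 of the 95 values were negative. At an unadjusted p under 0.05, 58 members passed. All 3 CCl4 samples lay below all 3 olive oil samples for 61 members, where 19.9% of all tested genes did so, and above them for 1, Sdhd, where 21.8% did so. Scaling to library size kept the sign of the 40 members that fell but ended every call: 0 members rose or fell, and the nuclear median was 0.018. In that scaling 26.2% of all genes rose and 3.73% fell. The members' distance to the median of all genes was nearly the same (nuclear -0.44 against -0.44 with TMM, mitochondrial -0.83 against -0.81). A change of scaling shifts all genes by nearly the same amount, so this sameness is built in and is no support for the fall. Leaving out 1 sample at a time gave between 13 members that fell, without olive oil replicate 3, and 47, without CCl4 replicate 1.

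**Figure D1:**
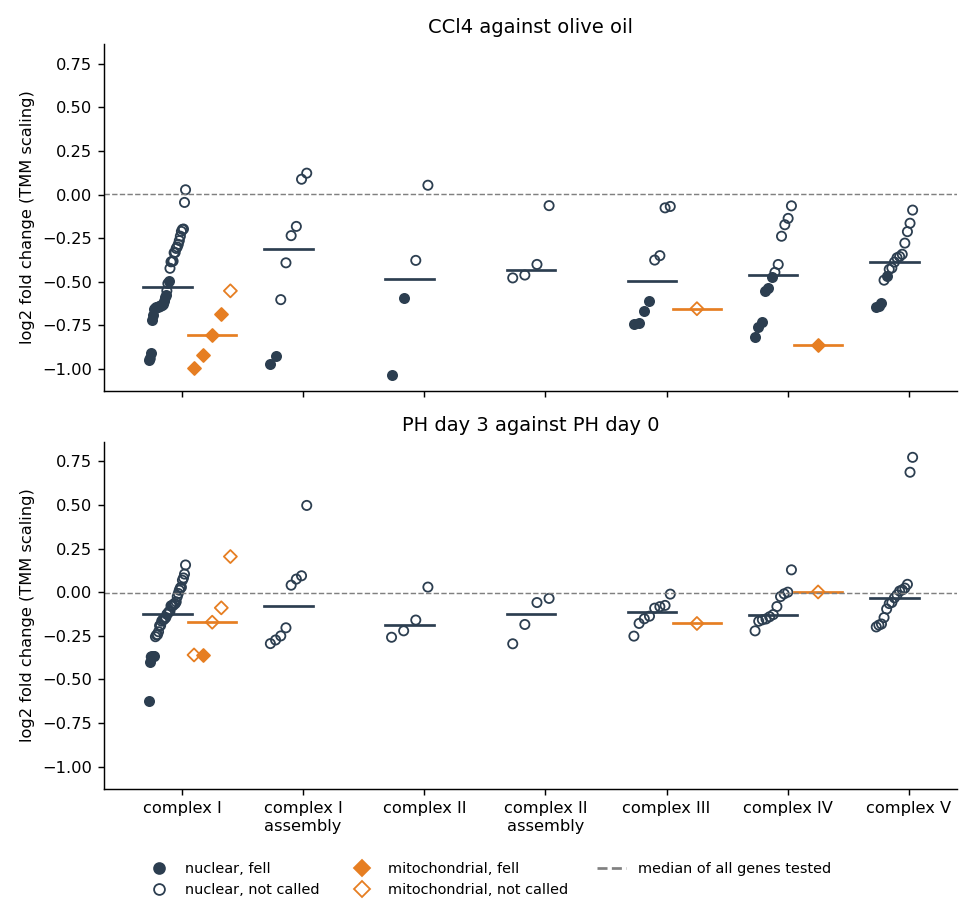
Log2 fold change with TMM scaling (vertical axis) of each tested complex member (points, filled where the member fell), by complex and genome, after CCl4 (top) and PH (bottom), with short lines for class medians and a dashed line for the median of all genes. Most members lie below 0 after CCl4, with a median of -0.47, while with library size scaling the nuclear median is 0.018; after PH the median is -0.12, and Atp5s is not drawn.

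Complex I, the class with the most members, had the most calls. Of 36 nuclear subunits, all tested, 17 fell after CCl4, with a median of -0.53. That share was close to those of complex II (2 of 4), nuclear complex III (4 of 8) and nuclear complex IV (6 of 12). Ndufa6, an accessory subunit of the LYR protein family (ENSMUSG00000022450, chromosome 15, 82350140 to 82354322, minus strand), read 120, 95.1 and 109 CPM after olive oil and 59.6, 53.5 and 58.1 CPM after CCl4. The groups did not overlap, and the log2 fold change was -0.95 ± 0.14 (SE, edgeR adjusted p = 0.00113). Ndufb9, another LYR accessory subunit, went from 109 ± 6.84 to 59.2 ± 4.48 CPM (SD, n = 3 each; log2 fold change -0.91 ± 0.13, edgeR adjusted p = 0.00109). Of its exon length, 19.5% lies under the overlapping Gm49356, where no read was assigned. Ndufv1, which binds NADH and the flavin cofactor, went from 172 ± 15.8 to 107 ± 6.10 CPM (SD, n = 3 each; -0.72 ± 0.14, edgeR adjusted p = 0.00569). Ndufs7, an iron-sulfur subunit next to the ubiquinone site, went from 54.3 ± 10.8 to 35.1 ± 5.91 CPM (SD, n = 3 each; -0.66 ± 0.19, edgeR adjusted p = 0.0312). Not every subunit was called: the iron-sulfur subunit Ndufs1 had a value of -0.33 (edgeR adjusted p = 0.139). Differences between members were not tested. Ndufs4 had a value of 0.03, the one complex I value above 0. Among the 8 assembly factors, 2 fell. Ndufaf1 read 36.6, 26.8 and 28.0 CPM after olive oil and 11.6, 16.2 and 19.4 CPM after CCl4 (-0.97 ± 0.22, edgeR adjusted p = 0.0104), and Ndufaf6 changed by -0.93 at a level of 5.63 to 10.6 CPM (edgeR adjusted p = 0.0386).

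Complex II held the lowest value of all tested members and 1 of the 4 values above 0. Sdhb, the iron-sulfur subunit (ENSMUSG00000009863, chromosome 4, 140961203 to 140979193, plus strand), read 227, 167 and 192 CPM after olive oil and 82.1, 102 and 107 CPM after CCl4. Its log2 fold change of -1.04 ± 0.17 (edgeR adjusted p = 0.00206) was the lowest of the 95 with TMM scaling. Sdha, the flavoprotein that oxidises succinate, fell from 422 ± 31.5 to 285 ± 41.5 CPM (SD, n = 3 each; -0.59 ± 0.18, edgeR adjusted p = 0.0381). The membrane anchors were not called: Sdhc had a value of -0.38 (edgeR adjusted p = 0.0768) and Sdhd one of 0.05 (edgeR adjusted p = 0.825). Sdhd read 197, 184 and 191 CPM after olive oil and 203, 203 and 199 CPM after CCl4. Of the 4 complex II assembly factors, 0 were called and all had negative values, with a median of -0.43.

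In complex III, 4 of 8 nuclear subunits fell, with a median of -0.49. Uqcrc1, a core subunit, read 254, 223 and 253 CPM after olive oil and 116, 157 and 171 CPM after CCl4 (-0.74 ± 0.18, edgeR adjusted p = 0.0132). The ubiquinone-binding subunit Uqcrq went from 212 to 129 CPM (-0.74 ± 0.21, edgeR adjusted p = 0.0305), and the core subunit Uqcrc2 from 249 to 166 CPM (-0.61, edgeR adjusted p = 0.0227). The Rieske iron-sulfur protein Uqcrfs1 had a value of -0.38 that was not called (edgeR adjusted p = 0.113).

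In complex IV, 6 of 12 tested nuclear genes fell, with a median of -0.46. Cox6a1, the liver form of subunit VIa, read 158, 144 and 173 CPM after olive oil and 100, 92.2 and 99.4 CPM after CCl4 (-0.73 ± 0.14, edgeR adjusted p = 0.00476). Cox5b, which binds zinc on the matrix side, went from 30.3 to 17.5 CPM (-0.82 ± 0.21, edgeR adjusted p = 0.0172). Cox4i1 (-0.54 ± 0.17, edgeR adjusted p = 0.0435) and Ndufa4 (-0.55 ± 0.15, edgeR adjusted p = 0.0264) also fell, and Cox6c passed narrowly (-0.47, edgeR adjusted p = 0.0468). Cox5a (-0.17) and Cox7a2 (-0.24) did not pass.

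In complex V, 4 of 15 tested nuclear genes fell, with a median of -0.39. The subunits of the catalytic core were not among them: Atp5a1 had a value of -0.42 ± 0.19 (edgeR adjusted p = 0.139) and Atp5b one of -0.39 (edgeR adjusted p = 0.171). Atp5c1, the central rotor shaft, read 249, 226 and 228 CPM after olive oil and 136, 156 and 167 CPM after CCl4 (-0.64 ± 0.15, edgeR adjusted p = 0.0134). Atp5j, a subunit of the peripheral stalk, had the tightest groups, at 111, 114 and 115 CPM against 71.8, 76.1 and 74.3 CPM (-0.64 ± 0.12, edgeR adjusted p = 0.00459). Atp5j2 fell by 0.62 on the log2 scale (edgeR adjusted p = 0.00947). The membrane rotor ring is made of identical proteins from the 3 Atp5g genes. Of these, Atp5g3 had the most counts, at 256 CPM after olive oil and 245 CPM after CCl4. Atp5g1 (3.90 and 3.52 CPM) and Atp5g2 (0.698 and 0.665 CPM) had low counts in both groups. They share 7.29% and 35.8% of their 75-base windows with other genes, Atp5g3 0%, and reads with several placements were left out. The part of this loss in their low counts was not tested.

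On the mitochondrial genome, 5 of the 7 tested genes fell after CCl4, and the median of -0.80 was lower than the nuclear median of -0.44, for which 35 of 88 fell. mt-Nd2 (ENSMUSG00000064345, chromosome MT, 3914 to 4951, plus strand) read 7762, 7375 and 9166 CPM after olive oil and 4688, 3733 and 3966 CPM after CCl4. The change was -0.997 ± 0.24 (edgeR adjusted p = 0.0144). mt-Co1, the catalytic subunit of complex IV, read 11214, 10170 and 11872 CPM against 6351, 5566 and 6726 CPM (-0.86 ± 0.24, edgeR adjusted p = 0.0259). Neither gene's groups overlapped. mt-Nd5 (-0.92 ± 0.26, edgeR adjusted p = 0.0275), mt-Nd4 (-0.80 ± 0.24, edgeR adjusted p = 0.0334) and mt-Nd6 (-0.69 ± 0.16, edgeR adjusted p = 0.0119) fell as well. mt-Cytb had a value of -0.65 ± 0.25 (edgeR adjusted p = 0.0907) and mt-Nd1 one of -0.55 ± 0.24 (edgeR adjusted p = 0.13). For both, all CCl4 samples lay below all olive oil samples, and DESeq2 called both. With library size scaling all 7 values stayed negative, with a median of -0.37, and none was called. Without olive oil replicate 3, 0 of the 7 were called.

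**Figure D2:**
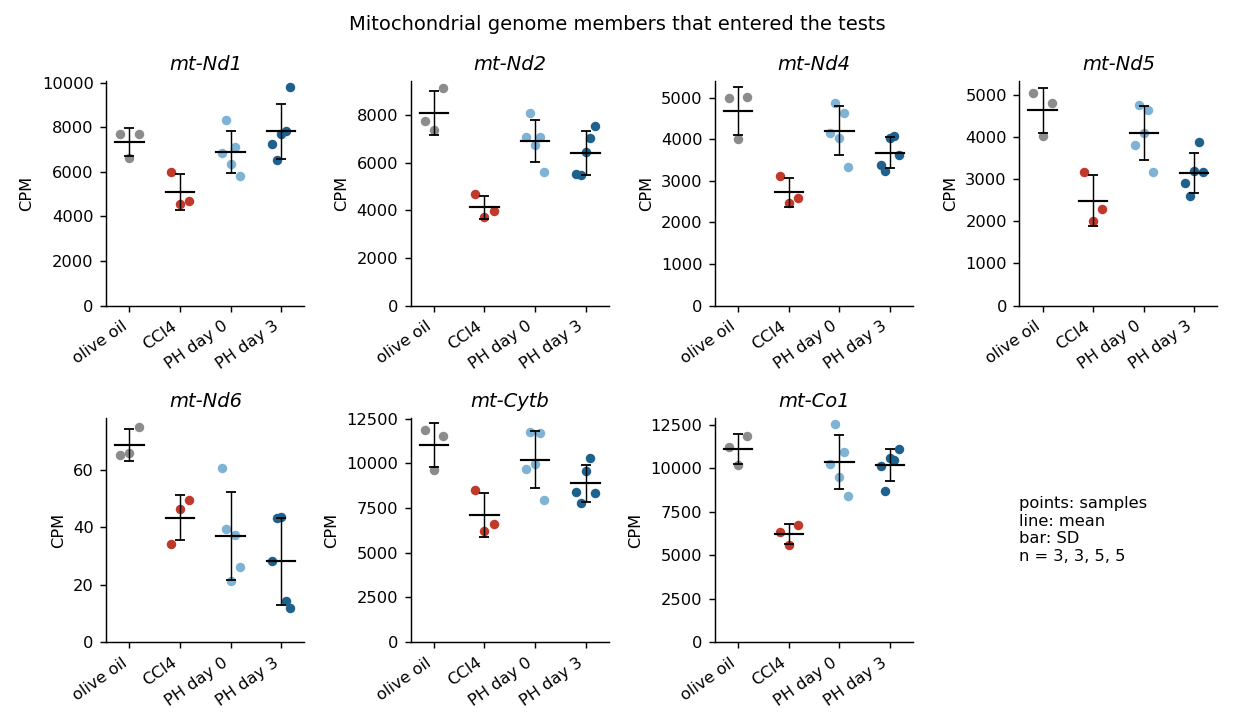
CPM (vertical axes from 0) of the 7 tested mitochondrial genes in each of the 16 samples (points), by group, with the group mean (line) and SD (bar). The 3 CCl4 samples lie below the 3 olive oil samples for each gene on this TMM scale, as for mt-Nd2 with at most 4688 against at least 7375 CPM; PH day 0 and day 3 overlap.

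Partial hepatectomy was followed by smaller values at the same time point. Of 94 members tested, 5 fell and 0 rose, while 8.01% of all 10546 tested genes fell and 9.73% rose. The median was -0.12, a fold of 0.923, with 72 negative values; at an unadjusted p under 0.05, 14 members passed. The share of members that fell was thus below that of all genes. All 5 that fell belong to complex I, which holds 41 of the 94 tested members: Ndufs7, Ndufb9, Ndufa1, Ndufa6 and mt-Nd5. The day 3 samples lay below all day 0 samples for 5 members, where 6.84% of all genes did so, and above for 0, where 6.5% did so. With library size scaling the nuclear median was 0.029, Ndufs7 alone fell, and mt-Nd1 rose, while 15.3% of all genes rose and 4.1% fell.

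Ndufs7 (ENSMUSG00000020153, chromosome 10, 80249121 to 80256794, plus strand) gave the clearest fall after surgery. It read 65.6, 61.0, 58.1, 59.8 and 60.3 CPM at day 0 and 43.3, 37.1, 41.6, 34.3 and 38.8 CPM at day 3 in replicates 12 to 16. The groups were far apart, and the change was -0.62 ± 0.11 (edgeR adjusted p = 0.000127). Ndufb9 read 102, 84.3, 105, 78.3 and 112 CPM at day 0 and 62.5, 78.9, 66.2, 74.8 and 77.6 CPM at day 3 (-0.40 ± 0.11, edgeR adjusted p = 0.0114). One day 0 sample lay below the highest day 3 sample. Ndufa6 went from 101 ± 8.27 to 77.0 ± 9.47 CPM (SD, n = 5 each; -0.37 ± 0.10, edgeR adjusted p = 0.0119). mt-Nd5 read 4761, 4092, 4644, 3162 and 3821 CPM at day 0 and 2905, 2591, 3183, 3885 and 3160 CPM at day 3, with overlap (-0.36 ± 0.12, edgeR adjusted p = 0.0425). Ndufa1 passed with -0.37 ± 0.12 (edgeR adjusted p = 0.0321). The calls of Ndufa1, Ndufb9 and mt-Nd5 ended when the muscle-bearing day 3 replicates 12 and 14 were both left out, and Uqcrq was then called, for 3 members that fell. The call of mt-Nd5 also ended with limma-voom, in the fit of all 4 groups and with the replicate number as a block (by number or by title tag), and the calls of Ndufa1 and Ndufa6 with the title-tag block.

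The other complexes had 0 calls after PH, with medians of -0.19 for complex II, -0.11 for nuclear complex III, -0.13 for nuclear complex IV and -0.03 for nuclear complex V. Sdhb came near the threshold (-0.26 ± 0.09, edgeR adjusted p = 0.0548), as did Ndufv1 (-0.26, edgeR adjusted p = 0.0564). mt-Co1 had a value of 0.00 (edgeR adjusted p = 0.995), with 10338 ± 1550 CPM at day 0 and 10186 ± 920 CPM at day 3 (SD, n = 5 each). mt-Nd1 was the mitochondrial gene with the highest value, 0.20 ± 0.12 (edgeR adjusted p = 0.268), and mt-Nd2 had one of -0.09 (edgeR adjusted p = 0.666). mt-Nd6 had a value of -0.36 ± 0.44 (edgeR adjusted p = 0.652), close to that of mt-Nd5 but with a wider error.

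All 5 members that fell after PH also fell after CCl4, and 35 fell after CCl4 alone. Of the 94 members tested in both, 88 had a lower log2 fold change after CCl4 than after PH with TMM scaling. In the fit of the difference 88 of 98 values were negative with TMM scaling and 59 of 98 with library size scaling. When the difference between the responses was tested in a fit of all 4 groups, 8 of 98 members were lower after CCl4 and 0 higher, against 3.87% and 1.47% of 11868 genes. At an unadjusted p under 0.05, 42 members passed. The 8 were mt-Nd2 (-0.88 ± 0.22, edgeR adjusted p = 0.0211), mt-Co1 (-0.83 ± 0.22, edgeR adjusted p = 0.0237), Sdhb (-0.74 ± 0.17, edgeR adjusted p = 0.0112), Atp5j, Uqcrc1, Atp5j2, Cox6a1 and Atp5c1. The last 5 ran from -0.65 for Atp5j (edgeR adjusted p = 0.0151) to -0.55 for Atp5c1 (edgeR adjusted p = 0.0292). Ndufs7 had the opposite profile, with a difference of 0.00 (edgeR adjusted p = 0.998): it fell by 0.66 after CCl4 and by 0.62 after PH. The injected and the operated mice came from separate experiments with different controls, so challenge and experiment cannot be told apart here. None of the 8 was called with library size scaling, where 4.05% of all genes were higher and 1.29% lower, and without the day 3 replicates 12 and 14 the number was 4.

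**Figure D3:**
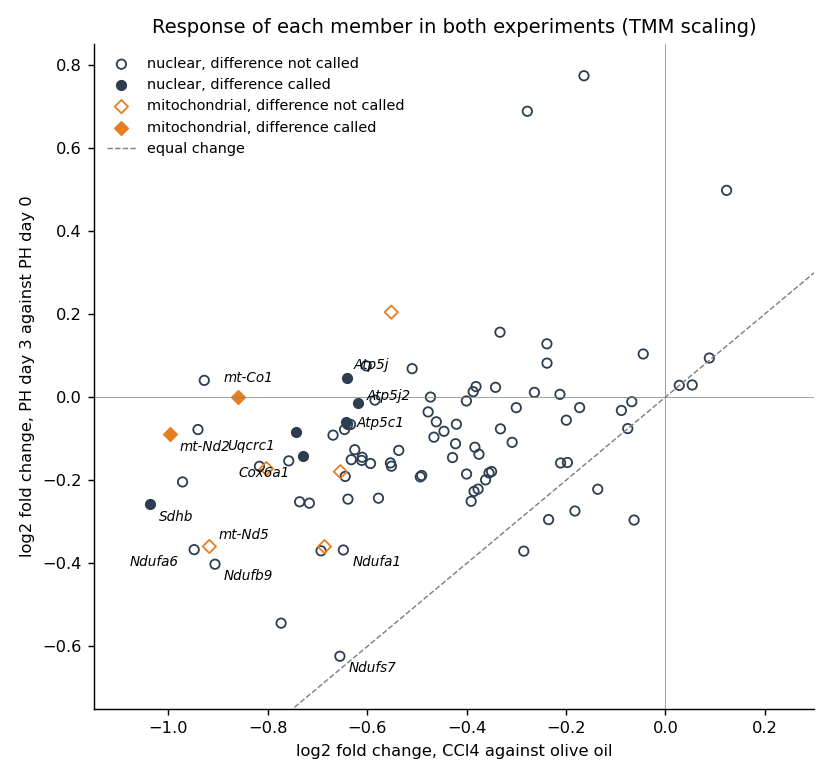
Log2 fold change after PH (vertical axis) against that after CCl4 (horizontal axis) for the members tested in both, with TMM scaling; circles are nuclear, diamonds mitochondrial, filled where the difference was called, and the dashed line marks equal change. Of 94 members, 88 lie above the line, where the CCl4 value is lower with TMM scaling, and Ndufs7 lies near it; library size scaling moved the median of all genes by 0.45 along the horizontal and 0.14 along the vertical axis.

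The balance between the genomes was also read as a ratio, which does not depend on scaling. Summed counts of the mitochondrial members, nearly all from the 7 tested genes, divided by those of the nuclear members were 4.79 ± 0.147 after olive oil (SD, n = 3), within 4.64 to 4.93. After CCl4 they were 4.62, 3.40 and 3.58, a mean of 3.87 ± 0.660 (SD, n = 3). CCl4 replicate 1, the sample that stood apart in scaling, lay just under the olive oil range, and the other 2 were well below it. The PH groups overlapped widely, at 4.52 ± 0.581 for day 0 and 4.62 ± 0.663 for day 3 (SD, n = 5 each). As a share of all counts, the mitochondrial genes took 4.17% ± 0.433 after olive oil and 3.27% ± 0.169 after CCl4. The nuclear members took 0.870% and 0.862%, but CCl4 replicate 1 had 0.681% and the other CCl4 samples 0.939% and 0.966%. Within complex IV the ratio of mitochondrial to nuclear counts was 7.48 ± 0.0930 after olive oil and 5.78 ± 0.396 after CCl4, without overlap. Within complex I it was 9.75 ± 0.118 and 7.91 ± 1.40, and within complex III 9.29 ± 0.304 and 8.59 ± 1.77, where one CCl4 sample (10.6) lay above the olive oil range.

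**Figure D4:**
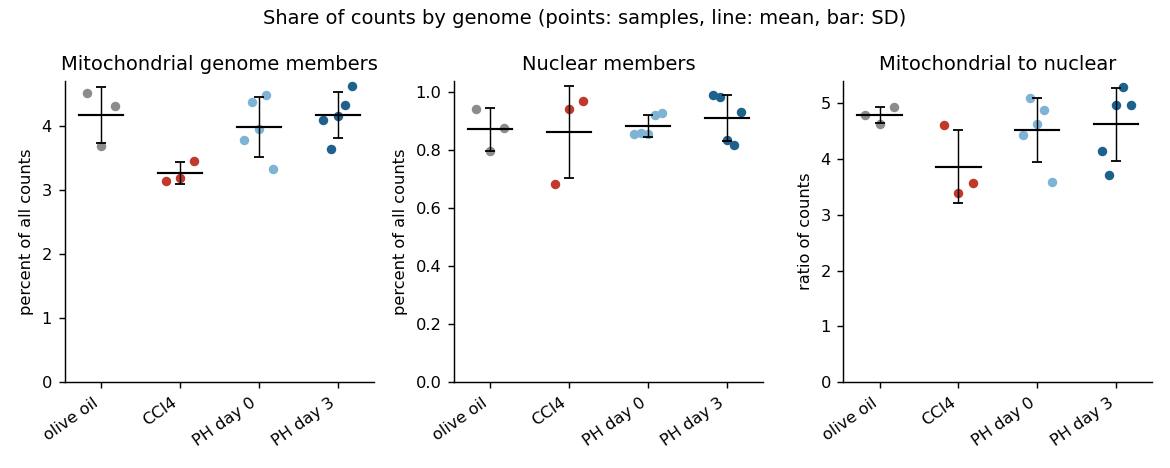
Percent of all counts taken by the mitochondrial (left) and the nuclear members (middle), and their ratio (right), in each sample (points) with group mean (line) and SD (bar). For the ratio, olive oil samples lie between 4.64 and 4.93, and CCl4 samples at 4.62, 3.40 and 3.58; the PH groups overlap.

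mt-Nd6 was read apart since it lies on the opposite strand to the other mitochondrial protein genes. Per 1000 counts of the other mitochondrial members it had 1.47 ± 0.122 after olive oil (SD, n = 3) and 1.08 to 1.89 after CCl4. At PH day 0 it had 0.865 ± 0.345 and at day 3 0.730 ± 0.433 (SD, n = 5 each). In CPM its day 3 samples ran from 11.8 to 43.5, a far wider relative spread than that of any other tested mitochondrial gene.

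Several complex IV subunits come as a ubiquitous or liver form and a form known from heart, skeletal muscle, lung or testis. The liver forms carried nearly all counts in every group: Cox6a1 was at 97.3 to 158 CPM and Cox4i1 at 245 to 350 CPM as group means. The muscle forms Cox6a2 and Cox8b appeared in PH day 3 replicate 12, with 150 and 45 counts (34.0 and 10.2 CPM), and in replicate 14 with 11 and 3 counts. Cox7a1 had 34 counts (7.70 CPM) in replicate 12 and 0.920 to 1.04 CPM in the other day 3 samples. In these libraries the skeletal muscle actin Acta1 was at 845 and 66.5 CPM, creatine kinase Ckm at 284 and 23.6 CPM and the myosin Myh1 at 440 and 75.5 CPM. All 3 markers were at 0 in the olive oil, CCl4 and PH day 0 samples. The part of muscle tissue in the isoform values was not tested.

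**Figure D5:**
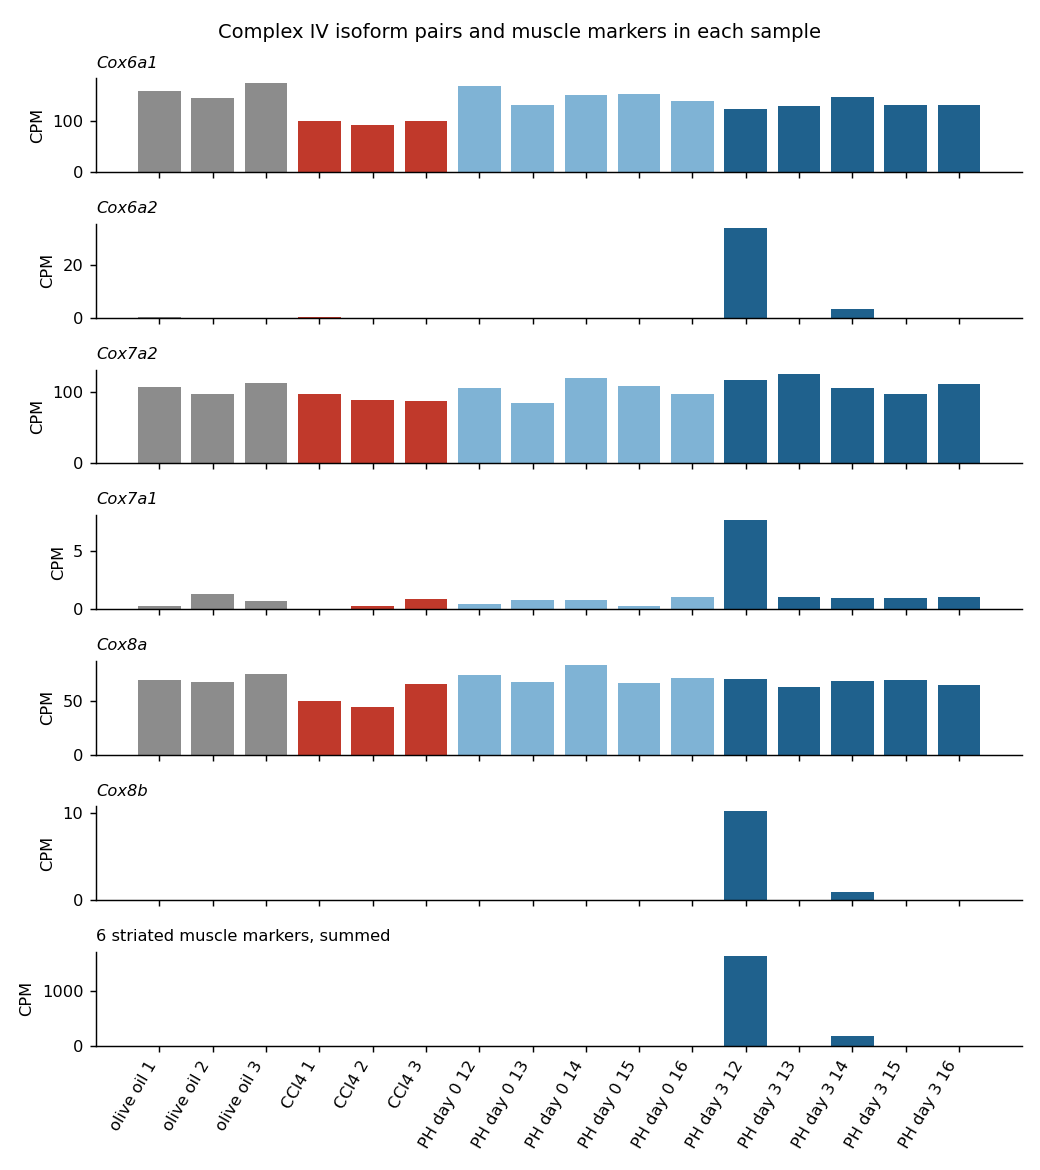
CPM (bars, axes from 0) in each of the 16 samples of the liver forms Cox6a1, Cox7a2 and Cox8a, of their muscle forms Cox6a2, Cox7a1 and Cox8b, and of 6 striated muscle markers summed. Replicate 12 of PH day 3, with 1625 CPM of markers, has the highest isoform values (34.0, 7.70 and 10.2 CPM), and replicate 14, with 176 CPM, follows for Cox6a2.

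Cox6b2, the form of subunit VIb known from testis, had a different pattern. Its counts were 0, 0, 1, 0 and 0 at PH day 0 and 12, 4, 7, 11 and 7 at day 3 in replicates 12 to 16. Every day 3 sample was higher, replicates 13, 15 and 16 with 0.337 to 1.56 CPM of muscle markers included. The gene was below the count filter of the comparison. It rose in the 3 fits that tested it: without a filter, with a filter on CPM and in the fit of all 4 groups (edgeR adjusted p = 7.42e-05, 0.000186 and 0.000811). It passed the filters of the last 2 fits only through samples where it is high, so their p-values are no support. After CCl4 it had 4, 20 and 3 counts against 1, 0 and 3 after olive oil, which the unfiltered fit did not call (edgeR adjusted p = 0.278). Ndufa4l2, the paralog of Ndufa4 known to be induced by hypoxia, had group means of 0.687 CPM after olive oil, 2.10 after CCl4, 1.17 at PH day 0 and 2.85 at day 3, below the filter of both comparisons. In all, 16 members were tested in neither comparison.

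Other genes around the chain were read as lists. Their counts can be read against the shares of all genes given above: 11.6% fell and 11.3% rose after CCl4, and 8.01% and 9.73% after PH. Of 22 tested genes for mobile electron carriers and entry points, 5 fell and 0 rose after CCl4, while 3 fell and 3 rose with library size scaling. They were cytochrome c1 (Cyc1, -0.50), proline dehydrogenase (Prodh, -2.27) and the coenzyme Q genes Coq9 (-0.90), Coq10a (-1.26) and Coq10b (-1.92), of which Cyc1 and Coq9 were not called in that scaling. After PH, Etfb, Sqor and Coq8b rose, and Etfdh and Prodh fell, of 21, with Etfdh not called in that scaling. Of 37 further assembly factors, 5 fell after CCl4 (Ecsit, Uqcc1, Surf1, Coa5 and Higd2a), a share close to that of all genes. With library size scaling 0 fell and 3 rose, and Coa5 had a positive value. After PH, Acad9 rose and Ecsit fell, the latter not with library size scaling. Of 27 genes for mitochondrial DNA maintenance, transcription and RNA stability, 1 fell after CCl4 (Fastkd1) and 2 after PH (Fastkd1 and Hsd17b10). The shares of this last list are below or near those of all genes. Of 75 tested mitochondrial ribosomal proteins, which translate the 13 mitochondrial mRNAs, 7 fell and 0 rose after CCl4, a share below that of all genes, and 0 fell and 10 rose with library size scaling. Of 74 tested after PH, 7 fell and 1 rose, and with library size scaling 1 fell and 2 rose. After CCl4 their median of -0.11 was nearer to that of all genes than the median of the chain members; with library size scaling it was 0.34.

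Among 11 tested regulators known to act on respiratory genes, 2 rose and 2 fell after CCl4. The coactivator Pprc1 rose by 0.75 and Myc by 2.63, while Yy1 fell by 0.54 and Ppara by 1.05. Under library size scaling each kept its sign, but Yy1 was no longer called (-0.088, edgeR adjusted p = 0.782). After PH, 0 of 10 were called. In the tricarboxylic acid cycle, which supplies NADH and succinate, 7 of 18 genes fell after CCl4: Idh3b, Idh3g, Suclg1, Suclg2, Sucla2, Pdha1 and Pdhb. With library size scaling 0 of the 18 fell and 1 rose, and Sucla2 had a positive value. Idh2, the NADP-dependent isocitrate dehydrogenase, rose after CCl4 (0.51) and after PH (0.90). After PH 3 of the 18 rose, Idh2 and Mdh2 among them, and Idh3b alone fell. With library size scaling 8 rose and 0 fell after PH, where 15.3% of all genes rose and 4.1% fell. Among 8 genes for uncoupling, nucleotide exchange and ATP synthase inhibition, Ucp2 rose after both challenges (1.05 and 1.23). The nucleotide carrier Slc25a4 rose after CCl4 (2.06), and the ATP synthase inhibitor Atpif1 (1.04) and Vdac1 rose after PH.

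Cell type markers moved with both comparisons, and their part in the results was not tested. The first values are those after CCl4. Of 8 hepatocyte markers, 0 were called, with a median of -0.12 and summed levels of 100111 to 135683 CPM after CCl4 and 113094 to 122700 CPM after olive oil. With library size scaling that median was 0.26. Of 6 stellate cell and myofibroblast markers 4 rose, of 6 macrophage markers 3 rose, and of 5 endothelial markers 1 rose. All 5 red blood cell markers fell, with summed levels of 133 to 244 CPM against 434 to 516 CPM after olive oil; with library size scaling all 5 values were negative and Alas2 alone was called. After PH, the hepatocyte marker Alb rose while Apoa1 and Serpina1e fell (Apoa1 not with library size scaling), with summed hepatocyte levels of 91528 to 109054 CPM at day 0 and 116040 to 139002 CPM at day 3. Of the stellate markers 2 rose (Col1a1 and Pdgfrb), of the endothelial markers 2 fell (Kdr and Clec4g), and of the red blood cell markers Alas2 fell. All 3 proliferation markers rose after both challenges.

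Promoters of the nuclear members were searched for 4 short motifs of factors known to bind respiratory genes, on both strands of 300-base windows from 250 bases before to 50 after the start (RefSeq, GRCm38.p6). The motifs were the NRF-1 core GCATGCGC, the estrogen-related receptor element AAGGTCA, the ETS element CCGGAAG, bound by GABP (also called NRF-2), and the YY1 core AAGATGG. Of 97 nuclear members by symbol, 78 matched the table. The NRF-1 core was in 12 of them (15.4%) and in 3.05% of all 27025 genes in the table. The ETS element was in 21 (26.9%, all genes 9.93%), the YY1 core in 11 (14.1%, all genes 7.28%) and the receptor element in 8 (10.3%, all genes 5.38%). The 7 overlaps between matches were each of a motif with its own reverse complement. Members that fell after CCl4 and members that did not pass held them at like shares: 17.2% and 13.6% for NRF-1, 27.6% and 29.5% for ETS, 17.2% and 13.6% for YY1. The receptor element was in 3.45% of the 29 matched members that fell and in 15.9% of the 44 that did not pass. These shares are descriptions of letters in a window and show no binding. For each complex, the upstream window of the member with the largest fall that held a motif is printed to show where the motifs lie, with the motif in capitals. The windows are Ndufa6 at chr15:82354292-82354541 (minus strand, 75 bases between the NRF-1 core and the start), Sdhb at chr4:140961021-140961270 (plus strand, NRF-1 core, 46 bases) and Uqcr11 at chr10:80406822-80407071 (minus strand, ETS element, 59 bases). Cox6a1 is at chr5:115348959-115349208 (minus strand, NRF-1 cores on both strands at 154 and 152 bases, overlapping, and an ETS element at 9 bases). Atp5j is at chr16:84834977-84835226 (minus strand, ETS element at 54 and YY1 core at 81 bases, at the second of 2 annotated starts):
Ndufa6: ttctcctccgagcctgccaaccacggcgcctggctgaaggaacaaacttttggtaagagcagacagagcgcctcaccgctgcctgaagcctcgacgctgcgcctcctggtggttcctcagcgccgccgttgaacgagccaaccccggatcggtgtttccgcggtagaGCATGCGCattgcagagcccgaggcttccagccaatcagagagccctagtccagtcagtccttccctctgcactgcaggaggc
Sdhb: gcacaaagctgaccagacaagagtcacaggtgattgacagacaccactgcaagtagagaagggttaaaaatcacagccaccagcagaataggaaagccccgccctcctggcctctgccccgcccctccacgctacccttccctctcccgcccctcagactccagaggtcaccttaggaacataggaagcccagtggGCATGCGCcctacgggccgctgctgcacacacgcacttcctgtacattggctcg
Uqcr11: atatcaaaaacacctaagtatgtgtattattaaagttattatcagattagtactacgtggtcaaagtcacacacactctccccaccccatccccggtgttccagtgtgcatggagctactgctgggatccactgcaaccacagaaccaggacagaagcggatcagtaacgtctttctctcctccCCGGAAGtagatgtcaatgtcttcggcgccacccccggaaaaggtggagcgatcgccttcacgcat
Cox6a1: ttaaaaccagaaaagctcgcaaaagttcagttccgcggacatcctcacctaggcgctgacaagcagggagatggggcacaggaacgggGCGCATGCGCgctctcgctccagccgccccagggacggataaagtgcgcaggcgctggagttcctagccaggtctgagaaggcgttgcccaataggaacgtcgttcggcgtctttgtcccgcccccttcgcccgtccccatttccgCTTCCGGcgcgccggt
Atp5j: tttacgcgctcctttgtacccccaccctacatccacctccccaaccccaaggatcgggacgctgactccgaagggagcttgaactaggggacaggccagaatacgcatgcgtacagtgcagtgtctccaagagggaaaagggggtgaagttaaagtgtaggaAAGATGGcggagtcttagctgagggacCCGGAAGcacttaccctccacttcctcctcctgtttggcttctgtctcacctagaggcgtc
These are the members whose values were given above, except Uqcr11, chosen by this rule alone, which fell by 0.67 after CCl4 (edgeR adjusted p = 0.0107).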

How the data were processed

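Whole-liver mRNA was measured by RNA-seq in 16 samples. Reads were aligned with STAR 2.5.1 to GRCm38 per the submitters' processing notes. The authors deposited whole-number counts per gene, made per the file headers with featureCounts 1.6.2 on exons of Ensembl 95, reverse-stranded, leaving out reads with several placements or several genes. Symbols came from GENCODE M21, which is Ensembl 96 and matched 54809 of 54838 identifiers. Groups came from the labels. Some PH titles share a tag between day 0 and day 3 (12N, 15 and 16), and the labels do not say which samples come from one mouse, so p-values measure the spread between these samples. Injection replicate numbers were given in accession order and pair nothing. Depth is given with the results and covers counting error only.

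The deposited counts were tested over the whole table with the quasi-likelihood test of edgeR 4.0.16 in R 4.3.3 (TMM scaling, filterByExpr with a minimum count of 10 and total of 15). Calls were made at a Benjamini-Hochberg adjusted p under 0.05 over all genes tested. SE is the log2 fold change divided by the root of F. The difference of the responses was fitted over all 16 samples, and the other comparisons on their own groups. On simulated counts with known changes, the CCl4 test called 1.61%, 41.7% and 81.2% of 1.5-, 2- and 4-fold changes among 10958 genes. The PH test called 36.9%, 76.6% and 95.3% among 10394 genes, and the test of the difference 0%, 25.0% and 72.3% among 11559. Few genes were changed in these simulations and they were not matched to the members, so the rates do not carry over to the members.

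Named were all mitochondrial members, a panel of core subunits, isoform pairs, and per class the called members with the largest change (up to 2 for CCl4 and PH) or any call for the difference. Ndufa1, Ndufs4, Ndufb4, Ndufaf5, Atp5l, Cox7b and Uqcr11 lie outside this rule and were named after their values were seen. Some genes that the rule or the lists name are not reported here. Members, lists and motifs were chosen with earlier results of these data known, so none is independent support. A further 13 non-coding genes and pseudogenes with matching symbols were left out. Tried as alternatives were DESeq2 1.42.0, limma 3.58.1 (voom), RLE and library size scaling, other filters, a stricter threshold, a fit of all 4 groups, nuclear genes alone, replicate blocks and leaving out samples.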

Additional observations from a re-analysis of the deposited data

Results flagged for a closer look

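In the groups of 5, a sample set far from the others relative to the group's range was found 13 times. The 120 groups each held the values of one gene or of one count share or ratio. Chance alone gives about 1 in 20 for normally spread values, a rate that does not hold for groups that are mostly 0. At PH day 3, replicate 12 held the muscle forms Cox6a2 at 34.0 CPM (others 0 to 3.42), Cox8b at 10.2 CPM (others 0 to 0.932) and Cox7a1 at 7.70 CPM (others 0.920 to 1.04). The same library held the most striated muscle markers, as given above. Among well-counted members, Ndufb8 was low in PH day 0 replicate 15 at 54.0 CPM (others 67.8 to 69.8), and Cox6b1 in PH day 0 replicate 13 at 149 CPM (others 172 to 176). Atp5j2 was high in PH day 3 replicate 13 at 90.8 CPM (others 79.4 to 81.6). The remaining 7 rest on single or few counts. They are mt-Nd3 at 0.133 CPM in PH day 0 replicate 12, mt-Nd4l at 1.69 CPM in PH day 0 replicate 16 and at 0.453 CPM in PH day 3 replicate 12, and mt-Atp6 at 1.36 CPM in PH day 0 replicate 16. Cox4i2 was at 0.232 CPM in PH day 0 replicate 15 and 0.226 CPM in PH day 3 replicate 12, and Cox6b2 at 0.266 CPM in PH day 0 replicate 14.

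For 8 members the test of the difference itself found the response to CCl4 lower than that to PH, in log2 units. These were mt-Nd2 (-0.88), mt-Co1 (-0.83), Sdhb (-0.74), Atp5j (-0.65), Uqcrc1 (-0.63), Atp5j2 (-0.57), Cox6a1 (-0.56) and Atp5c1 (-0.55). Challenge and experiment cannot be told apart for any of them.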

How the results depend on the processing

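For CCl4, 40 members fell. The number was 10 at an adjusted p under 0.01, 0 with library size scaling and 13 to 47 with 1 sample left out (13 without olive oil replicate 3, 14 without olive oil replicate 1, 18 without CCl4 replicate 2, 25 without CCl4 replicate 3, 47 without CCl4 replicate 1). DESeq2 gave 41, 38 of them shared, and the fit of all 4 groups 53, 39 of them shared. The nuclear median was 0.018 and the mitochondrial median -0.37 with library size scaling, and the nuclear median ran from -0.50 to -0.40 with 1 sample left out. For PH, 5 members fell. The number was 1 at an adjusted p under 0.01, 1 with library size scaling, 8 without a filter and 3 to 6 with 1 sample left out (3 without PH day 0 replicate 12 or PH day 3 replicate 14). It was 3 without PH day 3 replicates 12 and 14 together, a choice made after seeing the data. Members that rose numbered 1 with library size scaling (mt-Nd1), 2 without a filter (Cox6b2 and Cox7a1), 1 with a filter on CPM and 1 in the fit of all 4 groups (both Cox6b2); the nuclear median was 0.029 with library size scaling. Same-numbered PH samples deviated together in 1 of 5 pairs (r over 0.1), and other-numbered pairs had r from -0.11 to 0.073. Pairs with an identical tag had r of 0.054 (12N), 0.070 (15) and 0.12 (16). Each of these day 3 samples correlated best with the day 0 sample of its own tag. Replicates 13 and 14, whose tags differ between the days, had r of -0.017 and -0.051. Whether the tags pair the samples was left unsettled, and the main fit did not pair them. A replicate block by number gave 4 members that fell (without mt-Nd5), and a replicate block by the exact title tag 2 (without Ndufa1, Ndufa6 and mt-Nd5); 2 of 5 day 0 samples correlated best with their own number. For the difference, 8 members were lower after CCl4. The number was 0 at an adjusted p under 0.01, 0 with library size scaling, 17 with DESeq2, 4 without PH day 3 replicates 12 and 14, and 2 to 16 with 1 sample left out (2 without olive oil replicate 1 or 3, 3 without CCl4 replicate 2, 16 without CCl4 replicate 1). Its medians with library size scaling were -0.037 (nuclear) and -0.40 (mitochondrial). No named member that was called changed sign under any setting run. Of the 25 named members that fell after CCl4, calls held in 82 of 150 fits with 1 sample left out. In the simulated counts 1.5-fold changes were mostly missed for CCl4. Far fewer genes changed there than were called in the real table, which makes the adjusted threshold stricter. That rate therefore does not describe these members, some of which were called at smaller changes, such as Cox6c at -0.47. Members not called still cannot be read as unchanged.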

Other observations

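Some members outside the named set, most of them at low counts, were picked here after their values were seen. Ndufb4, an accessory subunit of complex I, had 8.03, 6.96 and 8.24 CPM after olive oil and 4.63, 3.47 and 4.27 CPM after CCl4. The groups did not overlap, and the log2 fold change of -0.94 ± 0.32 missed the threshold (edgeR adjusted p = 0.0556). After PH the highest values among tested members were those of Atp5g1 (0.77 ± 0.40, edgeR adjusted p = 0.203), Atp5l (0.69 ± 0.37, edgeR adjusted p = 0.228) and the assembly factor Ndufaf5 (0.50 ± 0.30, edgeR adjusted p = 0.281). Their group means lay between 2.30 and 7.06 CPM, and none passed. Cox7b, a nuclear subunit of complex IV, fell after CCl4 by 0.76 on the log2 scale (edgeR adjusted p = 0.00385), with 137 CPM after olive oil and 82.6 CPM after CCl4.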
